A study of Mus musculus with 33 samples.

Results

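Hhex, Hnf4a, Gata4 and Gata6, 4 transcription factor genes of the endoderm, were followed through 33 mouse libraries. They were taken by name, with earlier results of these data known, from the 21844 genes left after the reads of each gene's RefSeq transcripts were summed. Each of the 4 had 1 transcript in the deposited tables. Levels are read counts, or CPM, the counts scaled to a common library total.

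The cells were mouse embryonic stem cells grown as serum-free embryoid bodies, dispersed on day 2, treated for 2 days and harvested on day 4. The dose set had 7 libraries. The untreated control in serum-free medium (SFM) had 2, and the others were 1 with the activin/Nodal receptor inhibitor SB-431542 (SB), and activin A at 3 ng/mL (AA3, 1 library), 15 ng/mL (AA15, 2 libraries) and 100 ng/mL (AA100, 1 library). All groups were thus described with the same cell type, serum-free medium and dispersal, and no allele or transgene is named for any of them. The labels give neither the strain nor the name of the cells, nor whether all the RNA came from 1 culture. A method set compared AA100 with AA3 by standard RNA-seq (20 ng of mRNA, 1 AA100 and 2 AA3 libraries), by DP-seq, a method that copies transcripts with a few designed primers, from 50 pg (2 AA100 and 1 AA3), and by SMART-seq, a template-switching method for full-length cDNA, also from 50 pg (2 and 2). The other 16 libraries were all AA3: a DP-seq dilution series from 10 ng to 1 pg, 1 paired-end library and 3 alternative primer sets. The labels describe those 3 sets as made to suppress ribosomal transcripts. They give the original set of 44 primers for the DP-seq libraries of the method set and name no primer set for the dilution series. Apart from SFM, the labels call libraries of the same group technical replicates, so a p-value here mostly sets a difference against the spread between libraries of 1 sample. A group with 1 library was assumed to vary like the others in its fit.

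HHEX is a homeodomain repressor that marks the anterior endoderm and is needed for liver and thyroid buds. GATA4 and GATA6 are zinc-finger factors that bind GATA sites in primitive, visceral and definitive endoderm and in heart-forming mesoderm. HNF4A is a nuclear receptor that drives lipoprotein and other secretory genes in visceral endoderm, liver and gut. Activin A signals through the Nodal receptors to SMAD2 and SMAD3, which act with FOXH1 and other partners, and high activin doses are a common way to make endoderm from stem cells. SB-431542 blocks the same receptors.

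Promoter bases were read from RefSeq (GRCm38.p6) for the genes with an entry, Hhex and Hnf4a, from 250 to 41 bases before each start. They are shown so that the bases before the starts of these genes can be read beside their values, and because Hnf4a has 2 starts. Capitals mark matches to the words searched on both strands: the core GATA preceded by A or T and followed by A or G, for GATA factors, the FOXH1 word AATNCACA, the forkhead word TGTTTAC and the SMAD palindrome GTCTAGAC.
Hhex, chr19:37434591-37434800, plus strand: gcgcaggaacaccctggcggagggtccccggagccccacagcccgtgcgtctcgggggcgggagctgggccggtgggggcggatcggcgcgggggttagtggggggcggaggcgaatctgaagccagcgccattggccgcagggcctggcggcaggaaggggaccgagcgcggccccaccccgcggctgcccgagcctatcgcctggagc
Hnf4a upstream start, chr2:163506607-163506816, plus strand: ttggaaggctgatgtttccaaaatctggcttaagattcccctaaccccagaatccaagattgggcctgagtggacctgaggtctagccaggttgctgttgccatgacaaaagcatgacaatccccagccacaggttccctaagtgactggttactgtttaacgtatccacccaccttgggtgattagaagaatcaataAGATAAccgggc
Hnf4a downstream start, chr2:163546905-163547114, plus strand: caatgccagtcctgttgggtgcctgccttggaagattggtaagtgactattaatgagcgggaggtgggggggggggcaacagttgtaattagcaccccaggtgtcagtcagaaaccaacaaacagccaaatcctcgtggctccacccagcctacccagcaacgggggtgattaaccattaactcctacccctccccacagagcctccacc

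The Hhex window was 77.1% G and C, against a median of 51.9% over 32851 windows of 210 bases, and held none of the words. The upstream Hnf4a window (48.1% G and C) held 1 GATA word, AGATAA, 52 to 47 bases before the start. Some GATA word was present in 23.8% of all windows. The downstream Hnf4a window (55.7% G and C) held none of the words. The FOXH1 word occurred in 2.72% of all windows, the forkhead word in 2.68% and the SMAD word in 0.158%. The Hnf4a transcript counted in the tables starts 33 bases from this downstream start in GENCODE. Matches are descriptions of these letters and say nothing of binding.

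SFM replicate 2, labelled as holding spiked yeast transcripts, stood apart from SFM replicate 1. The SD of their log2 ratios over genes was 1.81, against 0.43 for the AA15 pair. Of 12180 genes tested against SFM, 0 passed an adjusted p of 0.05 for any of the 4 treatments by edgeR's quasi-likelihood test. At an unadjusted p under 0.05 there were 179 genes for SB, 197 for AA3, 702 for AA15 and 541 for AA100. A share of 0.05 of the 12180 genes is expected there without any change. SB, AA3 and AA100 fell below that share, and AA15 lay slightly above it. DESeq2 called 17, 14, 168 and 106 genes in the same order. Whether the SFM pair was grown as separate cultures is not in the labels, and all 4 comparisons share it. Results against SFM are therefore given with and without SFM replicate 2, a fit of 12076 genes that called 4.12% of them for SB, 13% for AA15 and 12.9% for AA100. With either SFM library left out, AA15, labelled as technical replicates, was the only group with 2 libraries. The p-values of such fits set a difference against the spread of that pair, and not against any spread of controls or of AA100. Labels were checked on markers: Cer1, a secreted Nodal antagonist, had 34.0 and 37.6 CPM in SFM, 0.266 in SB, 80.1 in AA3, 230 and 181 in AA15 and 736 in AA100. Library totals were 13053122 to 15707808 reads in the dose set, 10389043 to 10738438 in standard RNA-seq, 10678979 to 13389156 in DP-seq from 50 pg and 25897343 to 30609013 in SMART-seq.

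In the dose set, Hhex, Gata4 and Gata6 had their highest level in AA100, while Hnf4a stayed at 0 to 15 reads in every library. Hhex and Gata6 were lowest in SB and stood in the order SB, SFM, AA3, AA15, AA100. For Hhex, SB and SFM replicate 1 lay within counting error of each other. Gata4 kept no such order below AA100. None of the 4 passed the test against SFM for SB, AA3, AA15 or AA100 (0 of 4, with 0% of all genes called in each). These are bulk samples, so fewer cells of a type and less RNA per cell cannot be told apart.

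**Figure D1:**
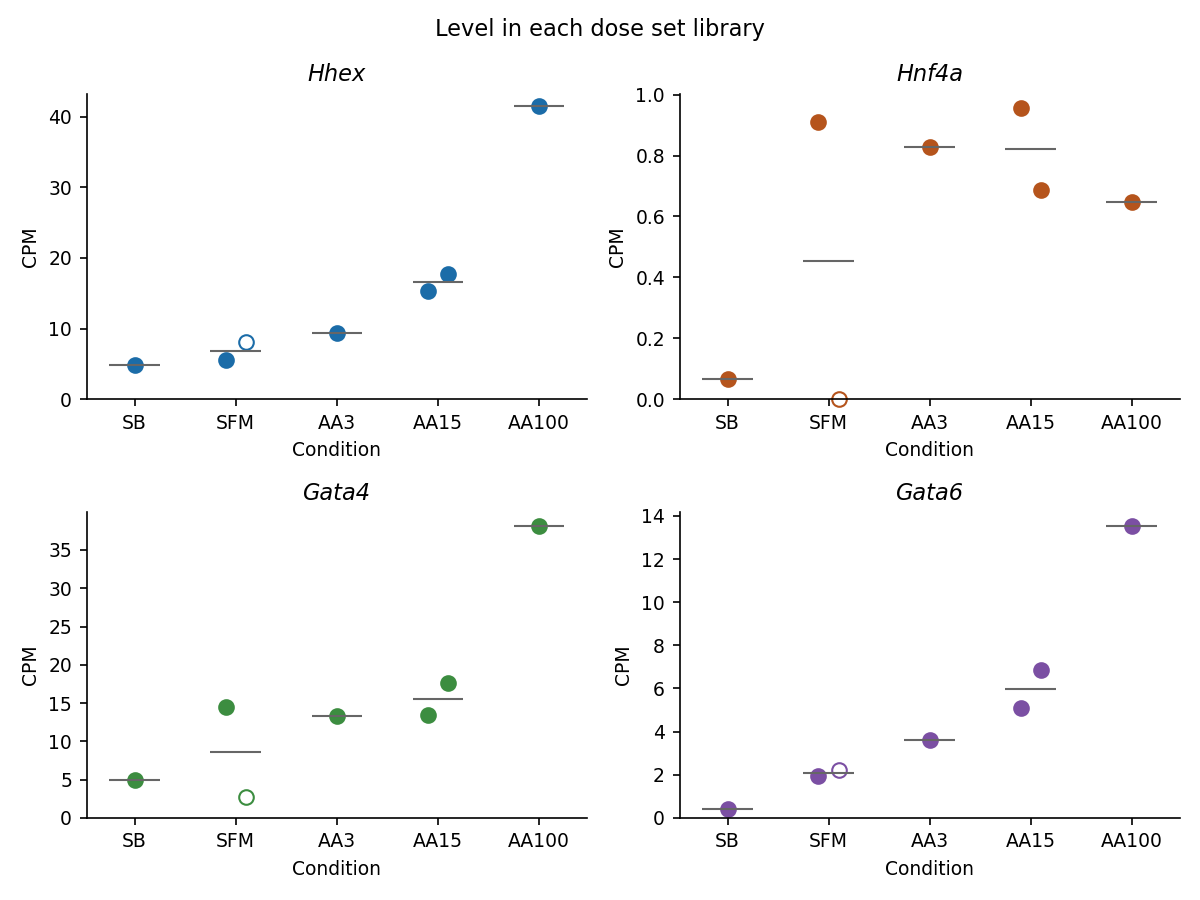
Level of each gene in the 7 dose-set libraries in CPM, each panel with its own axis from 0. Points are libraries, the open circle is SFM replicate 2 and the bar is the group mean; Hhex reached 41.4 CPM and Gata6 13.5 CPM in AA100, above every other library, and Gata4 split the SFM pair at 14.5 and 2.68 CPM.

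Hhex was read 86 and 105 times in SFM, 72 times in SB, 147 times in AA3, 241 and 259 times in AA15 and 640 times in AA100. In CPM this was 5.59 and 8.04, then 4.79, 9.36, 15.4 and 17.7, and 41.4 (95% Wilson interval 38.3 to 44.8, counting error only). Both SFM libraries lay between SB and AA3, and AA100 lay above both AA15 libraries. AA100 over SFM was 6.17-fold by pooled reads and 2.42 ± 0.65 on the log2 scale (SE, edgeR adjusted p = 0.941, unadjusted p = 0.0152). Without SFM replicate 2 it was 3.00 ± 0.35, with an edgeR adjusted p of 7.4e-13. AA15 over SFM was 1.11 ± 0.56 with both controls (edgeR adjusted p = 0.768) and 1.70 ± 0.32 without SFM replicate 2 (edgeR adjusted p = 9.1e-06). SB and AA3 stayed nearer to the control: SB was -0.74 ± 0.71 (edgeR adjusted p = 0.963) and AA3 0.28 on the log2 scale (edgeR adjusted p = 0.985). With SFM replicate 2 as the lone control, SB was -1.17 (edgeR adjusted p = 0.00326), in a fit that called 58.4% of all genes.

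Gata6 counts were 30 and 29 in SFM, 6 in SB, 57 in AA3, 80 and 100 in AA15 and 209 in AA100. The levels were 1.95 and 2.22 CPM in SFM, 0.399 in SB, 3.63 in AA3, 5.10 and 6.85 in AA15 and 13.5 in AA100 (Wilson interval 11.8 to 15.5). The SFM libraries lay close together here, and the groups, of so few libraries, did not overlap. AA100 was 6.52-fold above SFM, or 2.54 ± 0.62 on the log2 scale (edgeR adjusted p = 0.941, unadjusted p = 0.00996). It was 2.90 ± 0.43 without SFM replicate 2 (edgeR adjusted p = 1.8e-08). SFM was 5.20-fold above SB, on 6 reads in SB whose Wilson interval was 0.183 to 0.870 CPM. That difference was -2.56 ± 0.79 (edgeR adjusted p = 0.963, unadjusted p = 0.0239) and -2.21 ± 0.66 without SFM replicate 2 (edgeR adjusted p = 0.0313). AA15 was 1.38 ± 0.54 above SFM (edgeR adjusted p = 0.768), and 1.75 ± 0.41 without SFM replicate 2 (edgeR adjusted p = 5.8e-04).

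Gata4 split the control pair, with 223 reads in SFM replicate 1 and 35 in SFM replicate 2. It had 75 reads in SB, 209 in AA3, 211 and 258 in AA15 and 590 in AA100. As levels these were 14.5 and 2.68 CPM in SFM, 4.99 in SB, 13.3 in AA3, 13.4 and 17.7 in AA15 and 38.2 in AA100. SB, AA3 and 1 of the AA15 libraries lay between the controls, and AA100 lay above both. AA100 was 2.17 ± 0.90 above SFM (edgeR adjusted p = 0.941). Against SFM replicate 1 alone AA100 was 1.51 ± 0.32 (edgeR adjusted p = 1.4e-04) and SB was -1.48 ± 0.35 (edgeR adjusted p = 0.00312). Against SFM replicate 2 alone, SB was 0.47 (edgeR adjusted p = 0.326), so the direction of Gata4 under the inhibitor depends on which control is used.

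Hnf4a, at the limit of detection, was read 14 times in SFM replicate 1 and 0 times in SFM replicate 2, which allows up to 3 reads. SB had 1 read, AA3 13, AA15 15 and 10, and AA100 10. The Wilson interval was 0.484 to 1.42 CPM in AA3 and 0.352 to 1.19 in AA100, so a small difference between the doses was not detectable. A rise as large as the 19.3-fold of standard RNA-seq would lie outside these intervals. AA100 over SFM was 0.50 ± 1.60 (edgeR adjusted p = 0.963), and -0.37 ± 0.85 without SFM replicate 2 (edgeR adjusted p = 0.852).

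Leaving out SFM replicate 1 instead, so that SFM replicate 2 was the lone control, made calls common: 57.3% of all genes for AA3, 64.7% for AA15 and 59.2% for AA100. All 4 genes then passed for AA100, at 1.99 for Hhex, 2.23 for Gata6, 3.46 for Gata4 and a fitted 6.25 for Hnf4a against 0 reads (edgeR adjusted p = 1.7e-08, 7.1e-07, 2.7e-18 and 0.0248). All 4 also passed for AA15, and Gata4 and Hnf4a for AA3. Hhex, Gata4 and Gata6 were thus above the control in AA100 with either SFM library as the lone control, whereas Hnf4a changed sign. In both fits the only group with 2 libraries was AA15, so calls there set AA100 against the spread of that technical pair alone.

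With each step from SFM through AA3 and AA15 to AA100 counted as 1, the slope per step was 0.75 ± 0.17 on the log2 scale for Hhex (edgeR adjusted p = 0.136) and 0.81 ± 0.15 for Gata6 (edgeR adjusted p = 0.0917). It was 0.64 ± 0.22 for Gata4 (edgeR adjusted p = 0.330) and 0.22 ± 0.41 for Hnf4a (edgeR adjusted p = 0.792). None of the 4 was called, with 0.397% of 12102 genes called. Without SFM replicate 2, Hhex at 0.98 ± 0.11 (edgeR adjusted p = 1.1e-04) and Gata6 at 0.94 ± 0.13 (edgeR adjusted p = 6.5e-04) rose with dose, with 5.79% of 11970 genes called. Gata4 was then 0.47 ± 0.13 (edgeR adjusted p = 0.0580). With all SFM libraries kept, DESeq2 called Hhex at 0.73 (DESeq2 adjusted p = 0.0138) and Gata6 at 0.80 (DESeq2 adjusted p = 0.00115), with 4.11% of genes called. With SB as the lowest step edgeR called both as well, Hhex at 0.72 (edgeR adjusted p = 0.0391) and Gata6 at 1.00 (edgeR adjusted p = 0.0358), with 1.61% called.

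Between AA100 and AA3, standard RNA-seq showed all 4 genes higher at the high dose, Hnf4a by the largest factor and Gata4 by the smallest. All 4 passed the test there, where 62.3% of 12605 genes were called, 31.1% as higher and 31.1% as lower, so passing is no rare event. The 2 AA3 libraries of standard RNA-seq differed little more than counting alone gives (chi-square of their counts 1.29 per degree of freedom), and AA100 was 1 library.

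**Figure D2:**
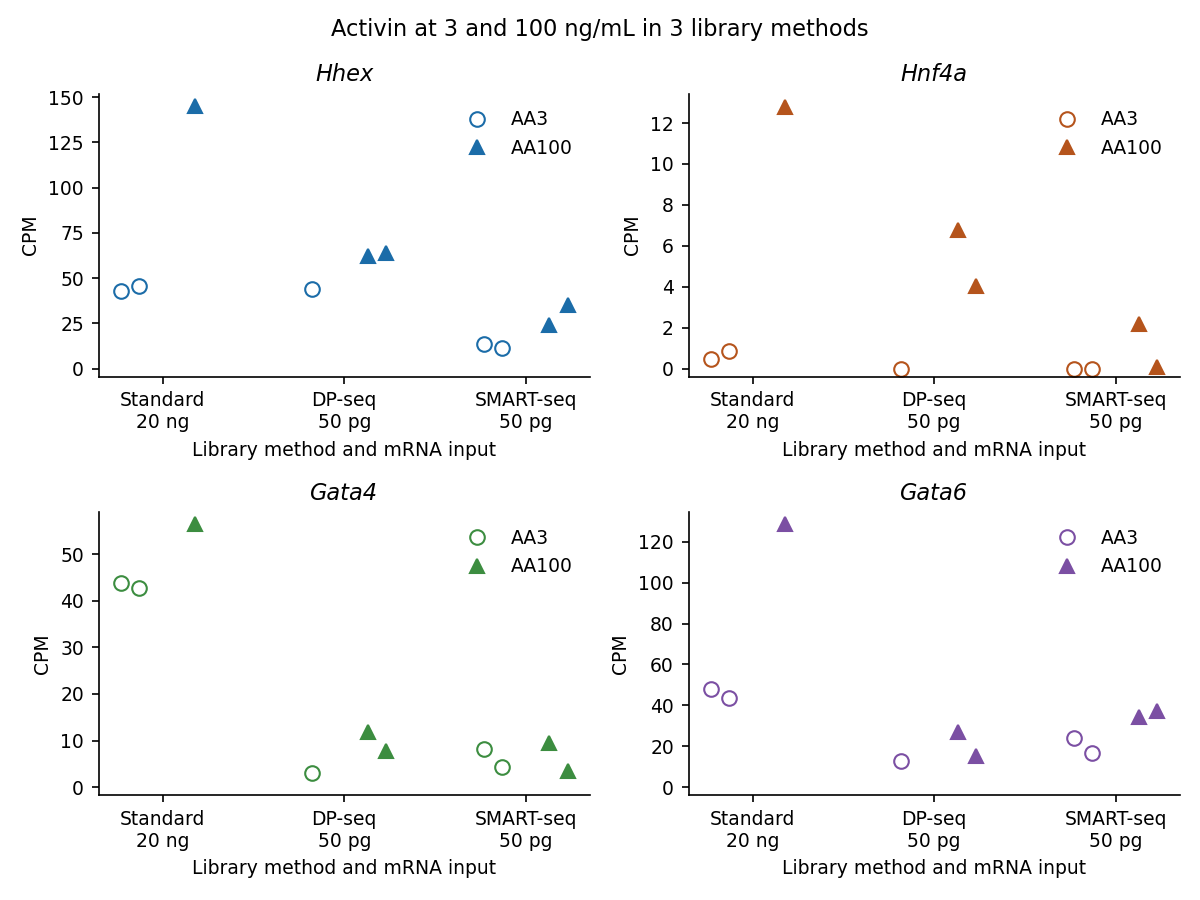
Level of each gene in CPM in the 10 libraries of the method set, by method, each panel with its own axis from 0. Open circles are AA3 and filled triangles AA100; Hhex and Gata6 had every AA100 library above every AA3 library in each method, and Gata4 overlapped in SMART-seq. With so few libraries per method, such separation is no rare event.

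Hnf4a had 5 and 9 reads in the AA3 libraries of standard RNA-seq and 133 in AA100, or 0.466, 0.865 and 12.8 CPM. AA100 was 19.3-fold higher by pooled reads, or 4.27 ± 0.28 on the log2 scale (edgeR adjusted p = 6.7e-48). DP-seq from 50 pg had 0 reads in AA3 and 77 and 54 in AA100, at least 18.8-fold higher against a floor of 3 reads over the group. Its adjusted p was 0.0555 by edgeR and 0.0328 by DESeq2, which called 4.63% of its genes. SMART-seq had 0 and 0 reads in AA3 and 56 and 2 in AA100. The pooled value there, at least 21.05-fold, rests on AA100 replicate 1, and the gene did not pass the low-count filter and was not tested. Every AA100 library lay above every AA3 library in standard RNA-seq and DP-seq. With so few libraries such separation is no rare event, and its share over all genes was not counted. In SMART-seq the 2 reads of AA100 replicate 2 lie below the floor of 3 and cannot be told from the 0 reads of AA3.

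Hhex had 458 and 474 reads in AA3 and 1509 in AA100 by standard RNA-seq, which is 42.7, 45.5 and 145 CPM. The change was 3.30-fold, or 1.74 ± 0.06 (edgeR adjusted p = 2.0e-181). DP-seq gave 44.2 CPM in AA3 and 62.2 and 63.6 in AA100, a 1.42-fold difference of 0.50 ± 0.38 (edgeR adjusted p = 0.593). SMART-seq gave 13.5 and 11.3 CPM in AA3 and 23.8 and 34.9 in AA100, 2.40-fold or 1.19 ± 0.35 (edgeR adjusted p = 0.169, DESeq2 adjusted p = 0.0494, with 10.1% of genes called by DESeq2). No AA100 library of Hhex overlapped AA3 in any method. With so few libraries per method, such separation is no rare event, and its share over all genes was not counted.

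Gata6 had 515 and 456 reads in AA3 and 1338 in AA100 by standard RNA-seq, or 48.0, 43.8 and 129 CPM, a rise of 2.80-fold (1.51 ± 0.06, edgeR adjusted p = 3.0e-131). By DP-seq it had 12.7 CPM in AA3 and 27.1 and 15.3 in AA100 (0.73 ± 0.61, edgeR adjusted p = 0.629). By SMART-seq it had 24.2 and 16.8 CPM in AA3 and 34.3 and 37.4 in AA100 (0.75 ± 0.30, edgeR adjusted p = 0.287). The groups did not overlap in any method, again no rare event with so few libraries, and the second DP-seq library of AA100 lay near AA3.

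Gata4 had 471 and 444 reads in AA3 and 586 in AA100 by standard RNA-seq, or 43.9, 42.7 and 56.4 CPM, a rise of 1.30-fold (0.41 ± 0.08, edgeR adjusted p = 4.5e-07). DP-seq gave 3.00 CPM in AA3 and 11.8 and 7.84 in AA100 (1.70 ± 0.98, edgeR adjusted p = 0.429). SMART-seq gave 8.19 and 4.28 CPM in AA3 and 9.54 and 3.46 in AA100 (-0.01 ± 0.72, edgeR adjusted p = 0.998). In SMART-seq the technical replicates of Gata4 differed more than the doses did.

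In DP-seq 0 of 4 genes passed, with 3.43% of 11631 genes called, and in SMART-seq 0 of 3 tested, with 1.35% of 11453. When the 3 methods were fitted together, so that the SMART-seq and DP-seq spread entered the error, only Hhex kept its call in standard RNA-seq (1.73 ± 0.31, edgeR adjusted p = 0.0395), with 1.91% of genes called. It lost that too when either AA3 library was left out (edgeR adjusted p = 0.368 and 0.309). Hnf4a (4.26, edgeR adjusted p = 0.552), Gata6 (1.504, edgeR adjusted p = 0.181) and Gata4 (0.40, edgeR adjusted p = 1) then missed it. The change did not differ between methods past the threshold for any of the 4, with 0.739% of 14072 genes called for DP-seq minus standard and 0.853% for SMART-seq minus standard. For Hhex the difference was -1.23 ± 0.44 for DP-seq (edgeR adjusted p = 0.355) and -0.62 ± 0.41 for SMART-seq (edgeR adjusted p = 0.725).

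**Figure D3:**
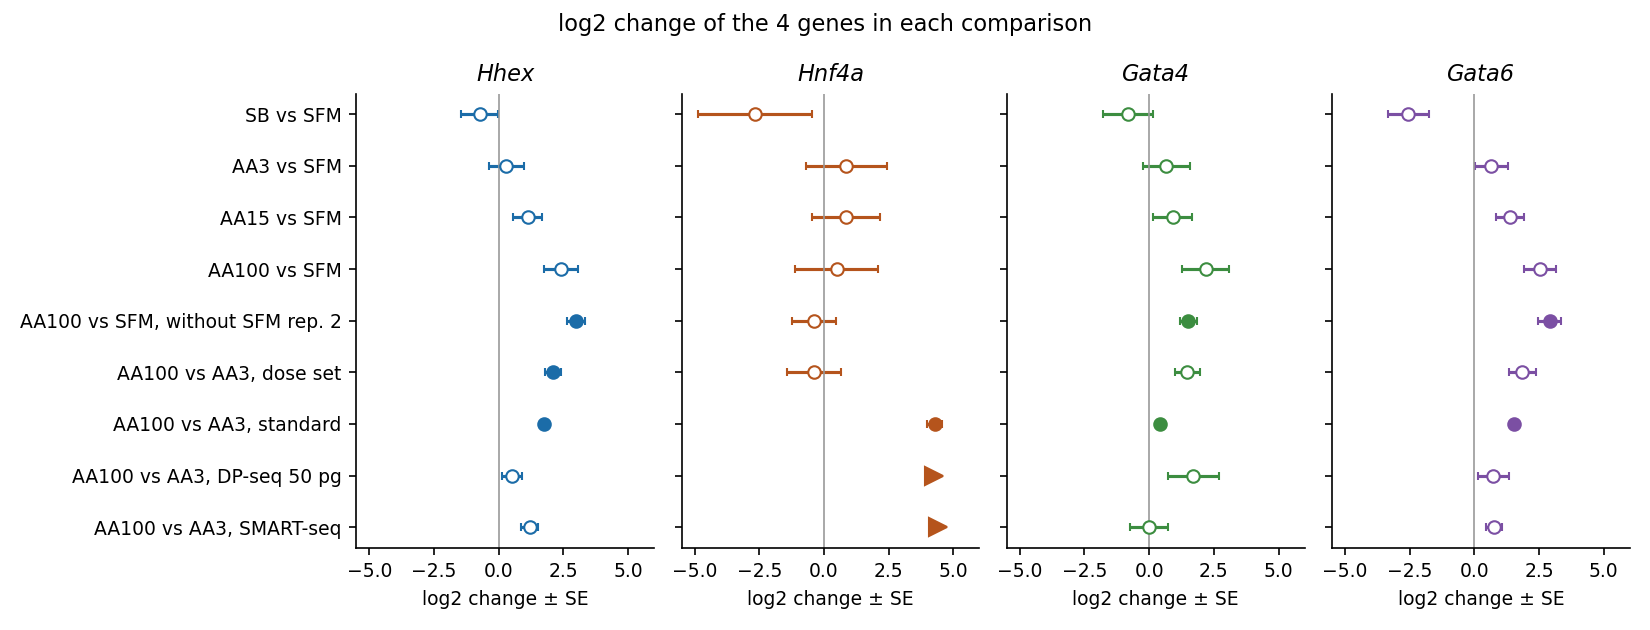
Log2 change of each gene with its standard error in the comparisons of SB, AA3, AA15 and AA100 with SFM and of AA100 with AA3 (3 methods and the dose set). AA100 with SFM is also shown without SFM replicate 2, and only there are any points against SFM filled. Filled points passed an adjusted p of 0.05 by edgeR and triangles are lower bounds against a group at 0 reads; the standard RNA-seq points of all 4 genes are filled, and Hnf4a lies at -0.39 in the dose set against 4.27 in standard RNA-seq.

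Per kilobase of transcript (GENCODE lengths), Hhex was the highest of the 4 in standard RNA-seq at 23.7 and 25.3 RPKM (CPM per kilobase) in AA3 and 80.6 in AA100. Gata6 followed at 14.8 and 13.5, then 39.8 RPKM. Gata4 stood at 13.0 and 12.6, then 16.7 RPKM, just below Gata6 in AA3 and well below it in AA100. The AA3 levels of Gata6 and Gata4 lay side by side without overlap. Hnf4a was far below at 0.107 and 0.198, then 2.94 RPKM.

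The dose set and the method set could be compared at AA100 over AA3, a comparison added after the values were seen. In the dose set Hhex was 4.43-fold higher in AA100 (2.10 ± 0.31, edgeR adjusted p = 0.0446), and it was the only one of the 4 called, with 0.24% of 12939 genes called and 0.193% called as higher. The call was lost on leaving out either AA15 library (edgeR adjusted p = 0.127 and 0.130) or either 10 ng library (edgeR adjusted p = 0.248 and 0.241). Gata6 was 3.73-fold higher (1.85 ± 0.53, edgeR adjusted p = 0.443), Gata4 2.87-fold (1.48 ± 0.48, edgeR adjusted p = 0.598), and Hnf4a 0.782-fold (-0.39 ± 1.05, edgeR adjusted p = 1). For Hnf4a the AA100 over AA3 change in DP-seq from 50 pg minus that in the dose set had an adjusted p of 0.0878 by edgeR (unadjusted p = 0.00178). With only 1 of the 2 DP-seq AA100 libraries it passed (edgeR adjusted p = 1.4e-04 without replicate 1 and 8.5e-06 without replicate 2, with 23.6% and 24.1% of genes called). So did Hhex (edgeR adjusted p = 9.8e-04 and 0.00166) and, without replicate 1, Gata6 (edgeR adjusted p = 0.00597). For Hhex the same difference was -1.60 ± 0.40 (edgeR adjusted p = 0.106), the dose set having the larger change. With both libraries none of the 4 passed, with 0.889% of genes called.

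**Figure D4:**
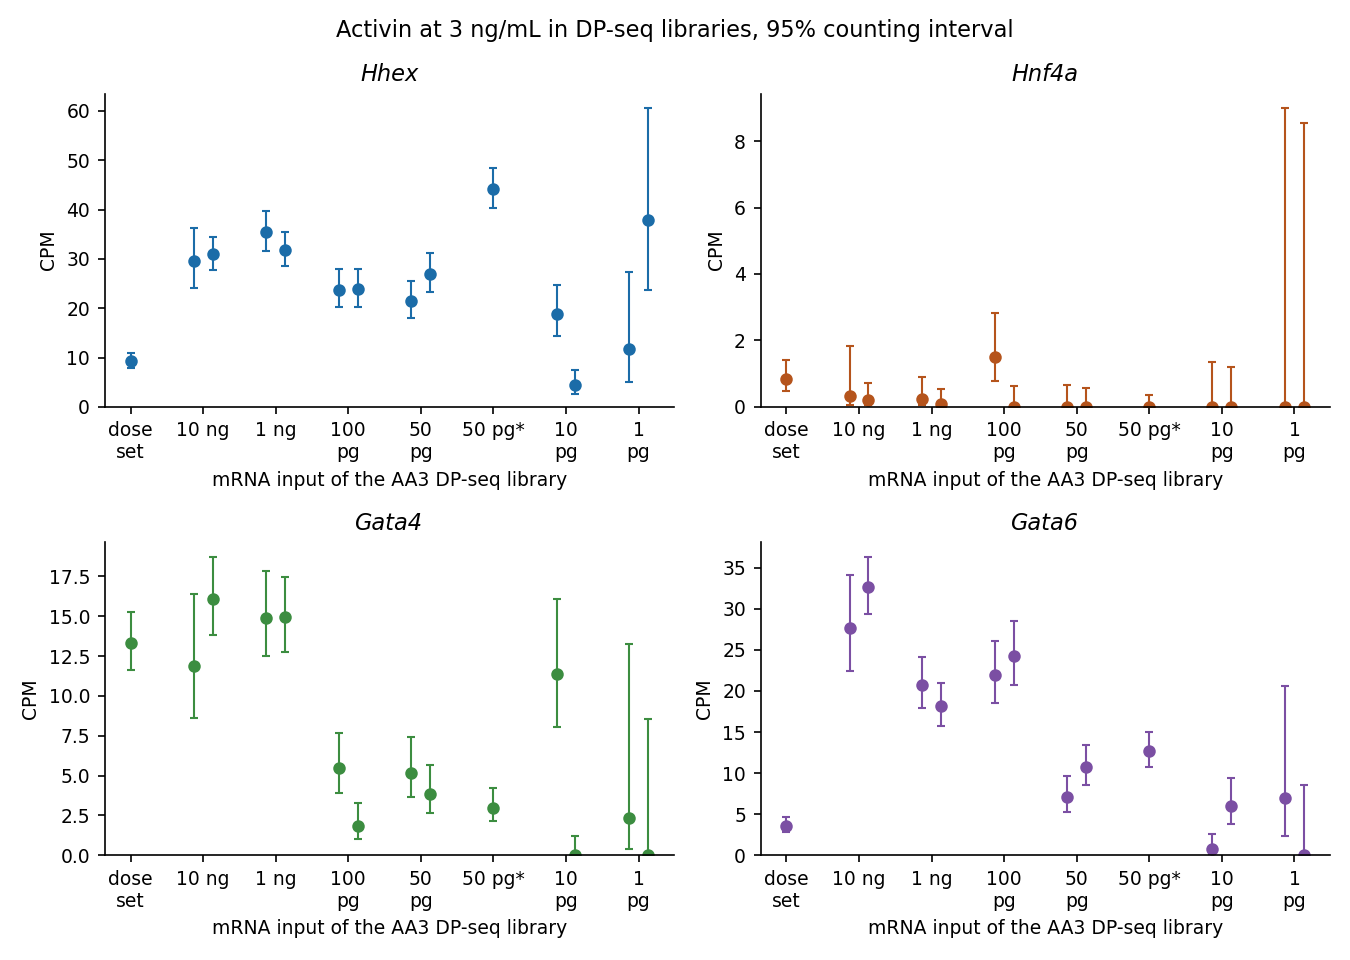
Level of each gene in CPM in the AA3 libraries made by DP-seq, by RNA input, with 95% Wilson intervals for counting error; the dose-set AA3 library, whose input the labels do not give, is shown beside them and the 50 pg library of the method set is marked by an asterisk. Hhex and Gata6 were higher in the 10 ng libraries than in the dose-set library, while Gata4 was at a like level.

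AA3 itself stood at different levels in the 2 sets. Hhex had 29.6 and 30.9 CPM in the 10 ng libraries against 9.36 in the dose set (1.42 ± 0.29, edgeR adjusted p = 0.0109). Gata6 had 27.6 and 32.6 CPM against 3.63 (2.79 ± 0.51, edgeR adjusted p = 0.00779). These 2 of 4 passed, both higher, with 15.7% of genes called and 6.21% called as higher. Gata4 had 11.9 and 16.1 CPM against 13.3 (-0.17 ± 0.42, edgeR adjusted p = 0.837), and Hnf4a had 1 and 2 reads against 13 (-2.04 ± 1.05, edgeR adjusted p = 0.245). Without 10 ng replicate 1 the adjusted p by edgeR was 0.0591 for Hhex, and without 10 ng replicate 2 it was 0.0846 for Hhex and 0.0672 for Gata6. Ttr, a visceral endoderm carrier, stood at 42.1 to 125 CPM in SFM and activin libraries of the dose set and at 2.25 and 1.84 CPM in the 10 ng libraries. The part of such a difference between the RNA samples in these values was not tested.

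Along the dilution, Hhex stood at 35.4 and 31.9 CPM from 1 ng, 23.8 and 23.8 from 100 pg and 21.5 and 26.9 from 50 pg. It then scattered to 18.8 and 4.42 CPM from 10 pg and 11.7 and 37.9 from 1 pg. Gata6 stood at 20.8 and 18.2 CPM from 1 ng and 21.97 and 24.3 from 100 pg, but at 7.10 and 10.7 from 50 pg and 0.710 and 5.99 from 10 pg. Gata4 stood at 14.9 and 14.9 CPM from 1 ng and only 5.45 and 1.82 from 100 pg, with 0 reads in 1 library each of 10 pg and 1 pg. Hnf4a gave 0 reads in all 6 libraries from 50 pg, 10 pg and 1 pg, and 9 and 0 from 100 pg. Hhex was the only one of the 4 read in all 12 libraries of the series. In the 50 pg DP-seq comparison, AA3 had 32 reads of Gata4 and 0 of Hnf4a.

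Among relatives of the members in standard RNA-seq, the partner HNF genes moved in both directions. In that fit 31.1% of all genes were called higher and 31.1% lower, shares that apply to each list below. Of 7 tested genes of 14 in a list of HNF families and nuclear receptor partners, 3 rose and 2 fell (median log2 change 0.38, over all genes -0.01). Foxa2, a forkhead pioneer factor of endoderm, rose by 0.50 (edgeR adjusted p = 1.1e-36). Its relative Foxa1 fell from 52.8 and 52.6 CPM to 26.9 (-0.95 ± 0.09, edgeR adjusted p = 1.4e-24), and the Onecut family factor Onecut2 fell by 0.85 (edgeR adjusted p = 0.0116). Of 6 tested GATA relatives and cofactors of 8, Zfpm1, the cofactor FOG1, rose by 0.63 ± 0.08 (edgeR adjusted p = 2.7e-13), and Trps1, a GATA-type repressor, fell by 0.51 (edgeR adjusted p = 0.0114). Gata5 was 0.87 ± 0.55 (edgeR adjusted p = 0.160), and the list's median was -0.07. Trps1 went the other way in the dose set, with 162 reads in AA3 and 233 in AA100, while Zfpm1 had 9 and 21.

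Genes that HNF4A is known to drive were mostly below the filter, with 4 tested of 19 in the tables. Apoa1, the main protein of high-density lipoprotein, rose from 1 and 1 reads to 42 (5.27 ± 0.64, edgeR adjusted p = 9.2e-16) and was the only one called. Apob, the low-density lipoprotein protein, was 1.22 (edgeR adjusted p = 0.0512), and Apoe was -0.07 (edgeR adjusted p = 0.161). In SMART-seq Apoa1 had 11 and 37 reads in AA3 and 272 and 458 in AA100 (4.00 ± 0.78, edgeR adjusted p = 0.0879). Apoe there had 3592 and 1567 reads in AA3 and 456 and 594 in AA100 (-2.26 ± 0.47, edgeR adjusted p = 0.0971), and Mttp, the lipid transfer protein gene, was -3.07 (edgeR adjusted p = 0.450). In DP-seq Apoa1 had 0 reads in AA3 and 24 and 3 in AA100. In the dose set Apoa1 had 6 reads in AA3 and 5 in AA100, so that, like Hnf4a, it was not higher there.

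Definitive and anterior endoderm genes had 12 of 16 tested higher and 0 lower in standard RNA-seq (median 0.60), beside 31.1% of all genes each way. Sfrp5, a secreted Wnt antagonist of anterior endoderm, rose by 5.31 ± 0.15 (edgeR adjusted p = 1.1e-251), Hesx1, an anterior homeobox repressor, by 1.30, and Cer1 by 1.22. Hesx1 went the other way in the dose set, with 61 reads in AA3 and 2 in AA100 (-4.85 ± 1.01, edgeR adjusted p = 0.163). Nor did it rise in DP-seq (-1.20 ± 0.65, edgeR adjusted p = 0.394) or SMART-seq (-0.14 ± 0.27, edgeR adjusted p = 0.880). DP-seq and SMART-seq each had 4 of 15 higher and 0 lower, and Cer1, Cldn6, Trh and Tdgf1 were the 4 in both. Of all genes, 3.43% were called in DP-seq and 1.35% in SMART-seq. Sfrp5 had 1 read in AA3 and 3 in AA100 of the dose set.

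Extraembryonic endoderm also expresses Gata4, Gata6, Hnf4a and Hhex. Of 13 tested of its 17 listed markers, 2 rose and 9 fell in standard RNA-seq (median -0.61), led by the laminin chain gene Lama1 (-3.35) and the protease gene Plat (-1.87), with the endocytic adaptor gene Dab2 higher by 1.48. Their summed level was 2167 and 2145 CPM in AA3 and 1424 in AA100. Afp had 0 reads in all 3 libraries, Ttr 2, 0 and 2, and Sox7 9, 5 and 4. In the dose set, with SFM and not AA3 as the reference, the sum was 2558 and 2089 CPM in SFM and 1534 in AA100. Cardiac mesoderm markers, where GATA4 and GATA6 also act, had 1 of 8 tested higher and 5 lower in standard RNA-seq, and summed to 43.0 and 44.0 CPM in AA3 and 15.5 in AA100. In the dose set these summed to 5.85 and 7.97 CPM in SFM and 24.9 in AA100, again a comparison with SFM and not with AA3. Blood and endothelial precursor markers, which share Hhex, had 2 of 5 tested higher and 1 lower, near the 31.1% of all genes called each way. They summed to 99.5 and 99.7 CPM in AA3 and 241 in AA100. Most of that sum was the receptor gene Flt1, with 838 and 795 reads in AA3 and 2374 in AA100, while Kdr, another such receptor gene, fell from 178 and 178 reads to 56. The part of any of these cell types in the members' values was not tested.

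Against SFM, 0 genes of these lists were called for AA100, with 0% of all genes called. Calls without SFM replicate 2 rest on the spread of the AA15 pair, and the share of all genes called there is given above. Without SFM replicate 2, 10 of 15 tested endoderm genes were higher and 1, Hesx1, lower (-5.47, edgeR adjusted p = 1.7e-10; list median 2.74), 4 of 8 HNF relatives were higher and 2 lower, and 4 of 9 cardiac and 3 of 5 blood genes were higher. Of 14 extraembryonic endoderm genes 2 were higher and 5 lower, and of 6 HNF4A-driven genes none passed in that fit by edgeR. Foxa1 was 3.15 in that comparison (edgeR adjusted p = 9.6e-09), the opposite sign to its AA100 over AA3 change in standard RNA-seq. Foxa2 was 2.61 and Foxa3 2.36 there, both called.

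The patterns of Hhex and Gata6 were most alike among the 4. Over 17 libraries, with log2(CPM + 1) centred within the dose set and each method, their Pearson r was 0.94, against 0.57 for Hhex with Gata4, 0.71 for Gata4 with Gata6, and 0.50 to 0.54 for Hnf4a with the others. All genes share the depths and treatments of those libraries, and technical replicates are among them, so r is a description. Among 9395 genes passing the filter in all sets, Foxq1 (0.96), Bmp2 (0.95) and Gata6 (0.94) were most like Hhex. Trh (0.94), Hhex (0.94) and Flt1 (0.93) were most like Gata6, Krt7 (0.90), Prkce (0.89) and Prdm1 (0.88) most like Gata4, and Tnip1 (0.92), Kxd1 (0.91) and Stc2 (0.89) most like Hnf4a. Without SFM replicate 2 the 3 genes for Gata4 remained, Flt1 (0.95) took the place of Gata6 for Hhex, and Gltp (0.93) that of Stc2 for Hnf4a. For Gata6 they were then Flt1 (0.96), Cfc1 (0.96) and Trh (0.95), and Hhex, still at 0.94, was at rank 5.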

How the data were processed

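Counts of unique reads per RefSeq transcript were deposited by the authors, per the file headers, for 33 libraries. Tables that hold any of the 15 non-whole values were taken as deposited estimated counts, which were rounded here. Which aligner, counting rule, strand setting and build were used is not given in the sources used here. Of 26566 transcripts, 25857 were named through a RefSeq table and 150 through GENCODE, 559 stayed unnamed, and counts were summed to 21844 genes.

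Tests used edgeR 4.0.16 (R 4.3.3): filterByExpr (minimum count 10, minimum total 15), TMM scaling and robust quasi-likelihood fits, with Benjamini-Hochberg adjustment over all genes tested. Values after ± are standard errors of log2 changes. CPM use plain library totals, intervals are 95% Wilson, and folds against 0 reads use a floor of 3. The dose set was fitted over its 7 libraries, each method over its own, and differences between methods over 10. The 3 comparisons across the dose and 10 ng libraries were added after the values were seen, in 1 fit that also holds DP-seq from 50 pg. Alternatives were DESeq2 1.42.0, RLE scaling, no filter, a joint fit, other trends, each replicate left out and a replicate block. The tests were tested on simulated data. The members and gene lists were chosen with earlier results of these data known. Named list genes are among up to 4 per list with the largest change; Cer1, Ttr, Foxa1 to Foxa3 and the genes called in both 50 pg methods were named after their values were seen. Some genes of the lists, counted in the lists' totals, are not reported here by name.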

Additional observations from a re-analysis of the deposited data

How the results depend on the processing

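Counts of genes called against SFM rest on single libraries. On leaving out 1 library they ranged from 0 to 7055 for SB, 0 to 6921 for AA3, 0 to 7815 for AA15 and 0 to 7156 for AA100. The highest values came without SFM replicate 1, while leaving out SFM replicate 2 gave 498, 637, 1570 and 1560. The dose trend ranged from 0 to 693 (48 with all libraries). Leaving out 1 library with methods fitted jointly gave 47 to 53 calls in standard RNA-seq and 505 to 519 in DP-seq. It gave 11 to 18 in SMART-seq, 5 to 291 for DP-seq minus standard and 8 to 272 for SMART-seq minus standard. In the added fit the ranges were 0 to 650 for AA100 over AA3, 0 to 3058 for DP-seq minus dose set and 652 to 5136 for 10 ng over the dose set.

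DESeq2 called 17, 14, 168 and 106 genes against SFM for SB, AA3, AA15 and AA100, 497 in the trend, 4431 in standard RNA-seq, 1135 in SMART-seq, and 508 and 477 for DP-seq and SMART-seq minus standard. SMART-seq had 250 calls without the filter and 573 in the joint fit, where standard RNA-seq had 269. The trend had 18 on log2 of dose plus 1 and 196 with SB as the lowest step. The replicate block gave 54 calls in SMART-seq (155 without) and 0 for AA15, as without the block. Same-numbered libraries did not deviate together (r = -0.23 for SFM and AA15, -0.02 for SMART-seq), and crossed pairing for AA15, added later, gave 5.

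Some members changed sign when 1 library was left out. Against SFM, SB ranged from -3.56 to 3.07 for Hnf4a and -1.48 to 0.47 for Gata4. AA3 ranged from -0.14 to 0.86 for Hhex, -0.024 to 6.60 for Hnf4a and -0.011 to 1.95 for Gata4. Hnf4a ranged from -0.0094 to 6.60 for AA15, -0.37 to 6.25 for AA100 and -0.095 to 0.59 for the trend. In these, values without SFM replicate 1 and without SFM replicate 2 were the ends. Gata4 in SMART-seq ranged from -0.90 to 0.55, and its difference from standard RNA-seq from -1.37 to 0.061, while that of Hnf4a ranged from -0.35 to 4.44. Gata4 ranged from -0.49 to 0.053 for 10 ng over the dose set and from -0.14 to 0.51 for DP-seq minus dose set. The cause was not tested. Hnf4a had at most 15 reads in any dose-set library, so its values there are imprecise.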

Other observations

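The 3 alternative primer sets, labelled as made to suppress ribosomal transcripts, gave different levels of the same genes. Each was 1 library of about 500 pg of AA3 RNA. Hhex had 16.8, 4.58 and 11.9 CPM with primer sets 1, 2 and 3, and Gata4 had 15.7, 6.77 and 0 CPM. Gata6 had 17.01 CPM with set 1, 183 CPM (917 reads) with set 2 and 21.6 CPM with set 3. Hnf4a had 0.334, 0.598 and 0 CPM. Gata6 with set 2 was above its level in every other library of the series, AA100 by standard RNA-seq included, at the lower dose. The paired-end AA3 library had 33.5 CPM of Hhex, 9.39 of Gata4, 3.42 of Gata6 and 0.512 of Hnf4a. With 1 library per primer set there was no test.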
